A study of Mus musculus with 12 samples.

Results

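Glycan-building transferases are the enzymes of the Golgi that extend the sugar chains of glycoproteins and glycolipids by 1 sugar at a time. The genes described here were those whose name on the array starts with St3gal, St6gal, St6galnac, St8sia, B3gnt, B3galt, B4galt, Fut, Galnt or Mgat followed by a number. They also had a probe that the scanner software marked as well above background on 2 or more arrays. The chip carried 69 such gene names on 127 probes, and 66 genes met the background rule, among 20951 gene names that met it in all. By their names on the array they were 18 sialyltransferases, 9 fucosyltransferases, 11 galactosyltransferases, 15 N-acetylglucosaminyltransferases and 13 N-acetylgalactosaminyltransferases. B3galt2 and St6galnac1 were above background on 0 arrays and St8sia2 on 1, so they did not meet it. Each gene was read from its brightest probe, and 64 of the 66 entered the test across 20048 genes. Fut1, above background on 2 arrays, was too dim for that test, with mean log2 ratios of -0.17, -0.05 and 0.03 in the 3 comparisons. St6galnac5 had no value on 1 array because of an outlier flag, and lay at -0.10 in the first comparison and at 0.40 and -0.45 in the clones of the second. The array's B3gnt1 is now B4gat1 in RefSeq, and Fut4-ps1 is a pseudogene of the fucosyltransferase Fut4. Both are counted in the family of their array name, whatever they encode.

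Mouse embryonic stem (ES) cells are pluripotent cells of the early embryo kept in culture. The 12 dual-colour arrays compared RNA of wild-type ES cells, of Dicer1-null ES cells of the clones 27G5 and 27H10, and of each clone labelled as overexpressing Dnmt1 or Dnmt3a,3b. Dicer1 encodes the nuclease that makes microRNAs, and Dnmt1, Dnmt3a and Dnmt3b are DNA methyltransferases. All lines grew on gelatin with leukemia inhibitory factor, and every line labelled as overexpressing also lacks Dicer1. The comparisons were Dicer1-null over wild type, Dnmt1-labelled over Dicer1-null and Dnmt3a,3b-labelled over Dicer1-null, each in 2 clones with 2 dye-swapped arrays per clone. That gives 6 ratios. The labels name 7 sources of RNA, 1 wild type for both clones and 1 Dicer1-null per clone in all 3 comparisons, but do not say whether each is a single extract. The labels name no separate cultures, so p-values measure only the spread between these samples. They give neither the vector and promoter of the overexpression nor the deleted part of Dicer1.

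The genes named in the labels were measured first. On its brightest probe Dicer1 was lower in the Dicer1-null cells at a mean log2 ratio of -0.53 ± 0.04 (SD, n = 2 clones, adjusted p = 0.004), although whether that probe lies in the deleted part is not known. Dicer1 was lower again in the labelled lines against that parent, at -0.63 ± 0.09 in the Dnmt1-labelled (adjusted p = 0.00674) and -0.77 ± 0.08 in the Dnmt3a,3b-labelled line (adjusted p = 0.0049). Dnmt1 gave 0.27 ± 0.23 in the Dnmt1-labelled line and did not pass the test (adjusted p = 0.111). In the Dnmt3a,3b-labelled line it gave 0.27 ± 0.07, which did not pass either (adjusted p = 0.113). Dnmt3a gave -1.03 ± 0.92 and Dnmt3b -1.04 ± 0.59 in the Dnmt3a,3b-labelled line, with adjusted p values of 0.0824 and 0.034, which goes against that label. In the Dnmt1-labelled line Dnmt3a was lower at -1.34 ± 0.58 (adjusted p = 0.0405) and Dnmt3b at -1.06 ± 0.40 (adjusted p = 0.0307). In Dicer1-null over wild type Dnmt3b was lower at -1.23 ± 0.30 (adjusted p = 0.0107). Dnmt3a there gave -0.88 ± 0.24 and did not pass (adjusted p = 0.088). Whether these probes lie in the part carried by an expression construct is not known either, so the lines are called by their labels throughout, and every direction given for them is that of the library with that label. Median array signals were 112 to 135 in green and 234 to 334 in red, and between 61.6% and 68.6% of probes were well above background in a channel. Of 12 ES cell marker genes 11 were measured, each well above background on every array of the first comparison, Pou5f1 and Sox2 among them. In the Dnmt-labelled comparisons each clone had a slide of its own, so slide and clone cannot be told apart there. All 4 arrays with wild-type RNA were on a further slide with another scan date. The first comparison thus cannot be told apart from its slide and scan date.

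Sugar chains on proteins begin either on asparagine (N-glycans) or on serine and threonine (mucin-type O-glycans, started by the Galnt enzymes), and glycolipids carry related chains on ceramide. Mgat enzymes set the branches of N-glycans, B3gnt and B4galt enzymes build lactosamine chains on those branches, and sialyltransferases and fucosyltransferases cap them. In mouse ES cells the best known product is the Lewis X antigen (SSEA-1), whose fucose is added by Fut9 and by Fut4.

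DNA methyltransferases act on CG dinucleotides, so the sequence before the start of a few members is shown with each CG in capitals. Galnt14 and Galnt6 are shown as the members with the lowest and the highest ratio in Dicer1-null over wild type. St6gal1 and B4galt4 are shown as examples from the larger group of members that were higher in both Dnmt-labelled lines. Of the starts of St6gal1, the one with the most CG is shown. Each line gives the 250 bases before a transcription start, 5′ to 3′ on the gene's strand, from RefSeq on build GRCm38.p6.
Galnt14, chr17:73710452-73710701, minus strand: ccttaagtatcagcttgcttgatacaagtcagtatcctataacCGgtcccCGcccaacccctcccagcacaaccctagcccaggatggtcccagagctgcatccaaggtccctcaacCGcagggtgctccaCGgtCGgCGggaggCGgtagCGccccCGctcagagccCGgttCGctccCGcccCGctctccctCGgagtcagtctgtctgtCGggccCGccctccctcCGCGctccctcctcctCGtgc
Galnt6, outer start, chr15:100729377-100729626, minus strand: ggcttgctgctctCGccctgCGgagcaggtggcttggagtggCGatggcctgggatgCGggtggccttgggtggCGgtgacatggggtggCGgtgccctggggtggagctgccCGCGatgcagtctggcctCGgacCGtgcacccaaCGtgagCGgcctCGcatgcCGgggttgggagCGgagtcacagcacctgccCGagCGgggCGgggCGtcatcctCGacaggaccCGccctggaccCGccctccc
Galnt6, inner start, chr15:100720478-100720727, minus strand: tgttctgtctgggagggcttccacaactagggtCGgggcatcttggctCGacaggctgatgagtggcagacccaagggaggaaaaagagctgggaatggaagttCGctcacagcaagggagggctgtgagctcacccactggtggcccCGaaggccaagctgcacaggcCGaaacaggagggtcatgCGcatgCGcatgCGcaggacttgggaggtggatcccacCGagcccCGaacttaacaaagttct
St6gal1, middle start, chr16:23225771-23226020, plus strand: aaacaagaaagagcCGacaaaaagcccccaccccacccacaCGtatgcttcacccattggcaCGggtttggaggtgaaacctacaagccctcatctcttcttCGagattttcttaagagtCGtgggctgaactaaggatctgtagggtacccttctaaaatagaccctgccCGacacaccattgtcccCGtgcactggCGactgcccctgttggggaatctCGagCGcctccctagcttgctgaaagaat
B4galt4, chr16:38742009-38742258, plus strand: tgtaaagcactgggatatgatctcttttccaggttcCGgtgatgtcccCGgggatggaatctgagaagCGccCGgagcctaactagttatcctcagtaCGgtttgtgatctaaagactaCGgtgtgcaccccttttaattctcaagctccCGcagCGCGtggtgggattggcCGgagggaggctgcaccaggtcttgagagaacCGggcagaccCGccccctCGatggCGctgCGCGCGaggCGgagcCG
The 250 bases hold 19 CG in Galnt14, 22 and 10 at the starts of Galnt6, 10 at the start of St6gal1 shown and 19 in B4galt4. Among all 32851 RefSeq promoter windows of that length, 19.7% hold 19 or more, 14.8% hold 22 or more and 37.8% hold 10 or more. The other starts of St6gal1 hold 6 and 5. RefSeq windows were found for 49 members, 68 windows in all, with a median of 14 CG against 6 over all windows. At least 1 CG was in 98.5% of the members' windows and in 92.1% of all windows, counted on 1 strand since CG reads the same on both. The genes of all windows were not held to the background rule as the members were, so neither contrast shows a trait of these members. The extremes were 1 start of Fut8 with 0 and B3galt6 with 38. Methylation was not measured in these samples. The arrays read the genes at other places, through probes whose positions are given here on build mm7: chr17:71782151-71782210 for Galnt14, chr15:100677432-100677491 for Galnt6, chr16:23018586-23018645 for St6gal1 and chr16:38478680-38478739 for B4galt4. No annotation of that build was used, so the exon or untranslated region under each probe is not stated.

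The first comparison asked which of these genes differ between Dicer1-null and wild-type ES cells. Members went both ways: 14 of 64 were higher and 15 lower at an adjusted p under 0.05, and 35 did not pass. The array as a whole had 20.4% of genes higher and 20.1% lower, so the members' shares of 21.9% and 23.4% were near the background. Changes of at least 2-fold were found in 5 members upward and 8 downward, while 5.60% of all genes passed both criteria upward and 4.95% downward. The median log2 ratio was 0.006 over the members and 0.009 over all genes. All 29 members that passed had the same sign on all 4 arrays. The test used these same arrays, so that is no separate support for the calls.

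Among the enzymes that start O-glycans, Galnt14 was lower and Galnt6 higher in Dicer1-null cells, and both stood at the ends of the whole set. Galnt14 gave log2 ratios of -3.54 and -2.85 on the arrays of clone 27G5 and -3.66 and -3.11 on those of 27H10. Its mean of -3.29 ± 0.14 (SD, n = 2, adjusted p = 0.000502) is a 9.77-fold difference. A dimmer Galnt14 probe, above background on 4 arrays, gave -0.05, so the fall rests on 1 probe. Galnt3, which also starts O-glycans, gave -1.95 and -1.53 in 27G5 and -3.13 and -3.08 in 27H10, with a mean of -2.42 ± 0.96 (adjusted p = 0.00434). Both clones were below zero on every array, but 27H10 lay 1.36 lower than 27G5, and a second probe gave -2.45. Galnt6 gave 2.45 and 2.15 in 27G5 and 2.37 and 2.18 in 27H10, a mean of 2.29 ± 0.02 (adjusted p = 0.000174, 4.88-fold), and its second probe gave 1.88. Galnt1, a widely expressed enzyme of the family, had a mean of 0.007 ± 0.024, and its 4 arrays from -0.20 to 0.18 lay around zero. In this family of 13, counts were 3 higher and 3 lower, with 7 not passing. Galnt2 at 0.53 ± 0.14 and Galnt11 at 0.37 ± 0.02 were the other members that were higher, and Galnt9 at -0.36 ± 0.13 the other that was lower.

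**Figure D1:**
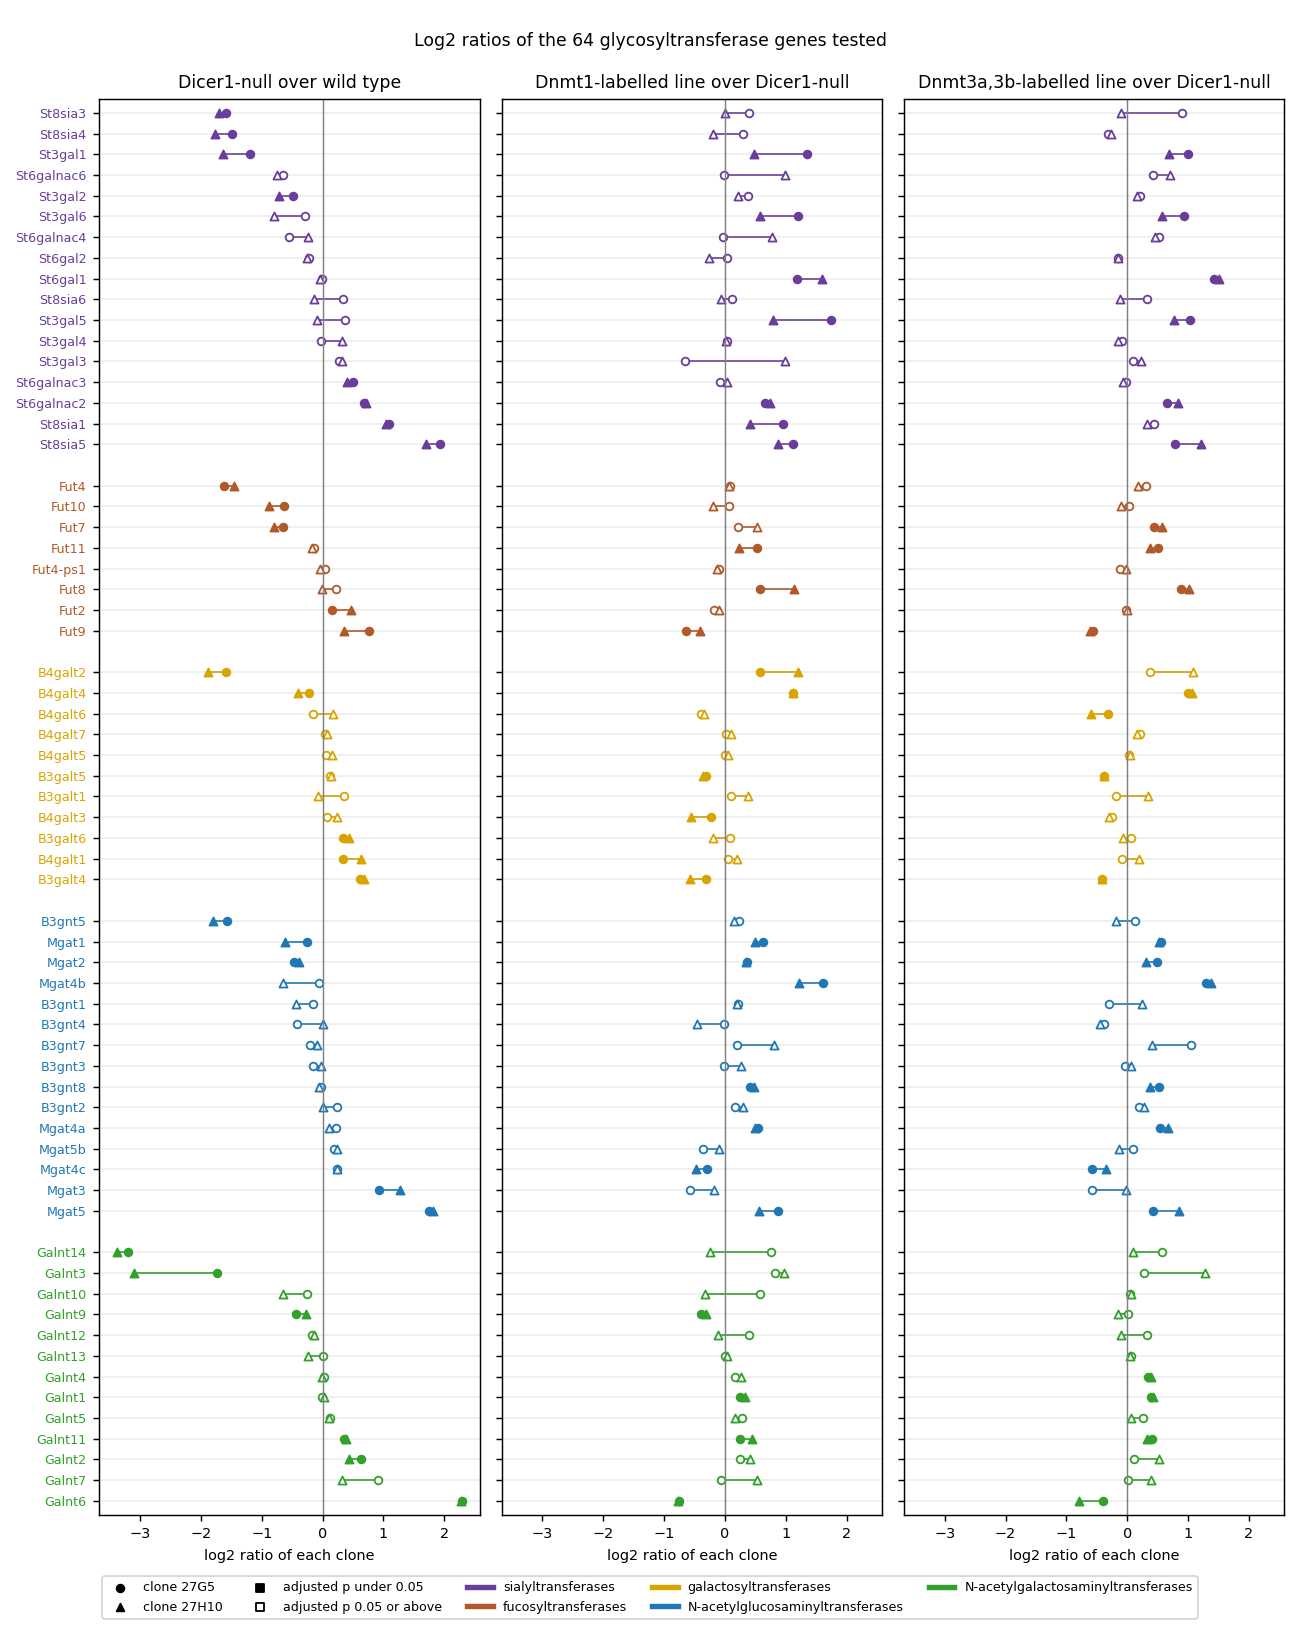
Log2 ratio of each clone (circle 27G5, triangle 27H10) for the 64 tested members in the 3 comparisons, coloured by enzyme family, with filled symbols at an adjusted p under 0.05. The means of both clones run from -3.29 (Galnt14) to 2.29 (Galnt6) in the left panel, and in the other panels they stay between -0.77 and 1.47.

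N-glycan branching enzymes were also split. Mgat5, which makes the β1,6 branch, gave 1.68 and 1.81 in 27G5 and 1.76 and 1.88 in 27H10, with a mean of 1.78 ± 0.05 (adjusted p = 0.000477). Every array lay at or above 1.68, and a second probe gave 1.01. Mgat3, which adds the bisecting N-acetylglucosamine that limits further branching, gave 0.84 and 1.02 in 27G5 and 1.25 and 1.31 in 27H10, a mean of 1.1 ± 0.25 (adjusted p = 0.00526). Its second probe gave 0.55. Mgat1 and Mgat2, which open the way to complex N-glycans, were lower at -0.43 ± 0.25 and -0.42 ± 0.06, and a second Mgat1 probe gave -0.15. Mgat4b, a β1,4-branching enzyme, gave -0.06 in 27G5 and -0.65 in 27H10 and did not pass (adjusted p = 0.141). The lowest N-acetylglucosaminyltransferase was B3gnt5, which starts lacto-series glycolipids. It gave -1.40 and -1.74 in 27G5 and -1.68 and -1.92 in 27H10, with a mean of -1.68 ± 0.16 (adjusted p = 0.000337, 3.21-fold lower), and a second probe gave -0.75. Counts in this family of 15 were 2 higher and 3 lower.

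The 11 galactosyltransferases had 3 members higher and 2 lower. B4galt2, a β1,4-galactosyltransferase of lactosamine chains, gave -1.69 and -1.50 in 27G5 and -1.92 and -1.85 in 27H10, a mean of -1.74 ± 0.21 (adjusted p = 0.00239). Both of its probes were below zero, the second at -1.27. B4galt4 was lower by less, at -0.31 ± 0.13 (adjusted p = 0.0271), and lost the call under 9 of 18 alternative settings. B4galt1, the major enzyme of this activity in most tissues, gave 0.42 and 0.24 in 27G5 and 0.71 and 0.54 in 27H10, with a mean of 0.48 ± 0.21 (adjusted p = 0.0205). The highest member was B3galt4, a galactosyltransferase of ganglioside synthesis, at 0.65 ± 0.05 (adjusted p = 0.0032). B3galt5, which builds type 1 chains, had arrays from 0.11 to 0.15 and a mean of 0.13 ± 0.004 that did not pass (adjusted p = 0.18). It was well above background on 3 of 4 arrays in Dicer1-null RNA and on 2 of 4 in wild-type RNA.

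The fucosyltransferases that make Lewis X differed in opposite directions. Fut4 gave -1.50 and -1.73 in 27G5 and -1.25 and -1.66 in 27H10, with a mean of -1.53 ± 0.12 (adjusted p = 0.000232). Its probe was well above background on all 4 arrays in wild-type RNA and on 1 of 4 in Dicer1-null RNA. Because the background offset draws dim ratios toward zero, its value under other corrections reached -3.60. Fut9 gave 0.61 and 0.92 in 27G5 and 0.31 and 0.39 in 27H10, a mean of 0.56 ± 0.30 (adjusted p = 0.0158), and its 4 other probes gave 0.28 to 0.42. All 4 arrays were above zero, although without clone 27G5 the call was lost, as it was with the shared RNAs modelled. Fut10 at -0.76 ± 0.17 and Fut7, which makes sialyl Lewis X, at -0.73 ± 0.11 were also lower, and Fut2, which makes H antigens, was higher at 0.31 ± 0.22. Fut8, the enzyme of core fucose on N-glycans, gave 0.11 ± 0.17 and did not pass, as did Fut11 and Fut4-ps1.

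Sialyltransferases, set apart from the other families, had 4 of 17 higher, 4 lower and 9 that did not pass, with a median log2 ratio of -0.02. The other 47 members had 10 higher and 11 lower. St8sia4, which makes polysialic acid, gave -1.76 and -1.22 in 27G5 and -1.97 and -1.57 in 27H10, with a mean of -1.63 ± 0.20 (adjusted p = 0.000726). A dimmer St8sia4 probe gave -0.30. St8sia3, another α2,8-sialyltransferase, gave -1.46 and -1.71 in 27G5 and -1.64 and -1.77 in 27H10, a mean of -1.65 ± 0.09 (adjusted p = 0.00383). St8sia5, which adds α2,8-linked sialic acid to gangliosides, was the opposite, with 1.63 and 2.23 in 27G5, 1.60 and 1.82 in 27H10 and a mean of 1.82 ± 0.16 (adjusted p = 0.000477). St8sia1, the GD3 ganglioside synthase, gave 0.91 and 1.29 in 27G5 and 0.94 and 1.16 in 27H10, with a mean of 1.08 ± 0.03 (adjusted p = 0.00248). None of these 4 had an array on the other side of zero.

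St3gal1, which caps core O-glycans with α2,3-linked sialic acid, gave -1.43 and -0.95 in 27G5 and -1.89 and -1.38 in 27H10, a mean of -1.41 ± 0.32 (adjusted p = 0.0053). St3gal2, which also acts on glycolipids, gave -0.66 and -0.32 in 27G5 and -0.86 and -0.58 in 27H10, with a mean of -0.60 ± 0.17 (adjusted p = 0.00435). In both genes the array with Dicer1-null RNA in Cy3 read higher than its dye-swapped partner in each clone. St6galnac2, which also acts on O-glycans, was higher at 0.70 ± 0.02 (adjusted p = 0.00183), as was St6galnac3 at 0.46 ± 0.07 (adjusted p = 0.00637). St6gal1, which adds α2,6-linked sialic acid to N-glycans, lay at -0.02 ± 0.02, between -0.13 and 0.12 on its arrays. St3gal5, the GM3 synthase at the start of the gangliosides, gave 0.32 and 0.41 in 27G5 and -0.08 and -0.10 in 27H10. Its clones thus lay on opposite sides of zero, and the mean of 0.14 ± 0.32 did not pass (adjusted p = 0.688).

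The labels name 1 source of wild-type RNA, so spread among wild-type cultures may not be in these p-values. In a fit that takes each named source as 1 RNA shared between ratios, 4 members were called higher and 6 lower, against 4.79% and 4.91% of all genes, and Galnt14, Galnt6, Mgat5, B3gnt5, B4galt2, Fut4, St8sia4 and St8sia5 were among them. Without the ratio of clone 27H10 6 members were called higher and 6 lower, with 8.12% and 7.46% of all genes, and without that of 27G5 7 were called higher and 12 lower, with 8.63% and 8.75%. Markers of other cell types moved too: 8 of 11 fibroblast genes were lower in Dicer1-null cells and 2 higher (Dcn and Twist1), and 7 of 10 trophoblast genes lower and 1 higher (Elf5). Of 12 primitive endoderm genes 5 were lower and 2 higher, and of 11 ES cell genes 6 were higher and 0 lower. The summed signal of the fibroblast genes was 10700 to 11400 in wild-type RNA and 3370 to 4430 in Dicer1-null RNA, where Col3a1, Postn and Twist2 were not well above background, and that of the trophoblast genes 92600 to 213000 and 32200 to 65100. Summed ES cell signals were 165000 to 176000 in wild-type RNA and 192000 to 251000 in Dicer1-null RNA. The part of these cells in the results was not tested, and fewer cells of a type cannot be told apart from less RNA per cell.

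**Figure D2:**
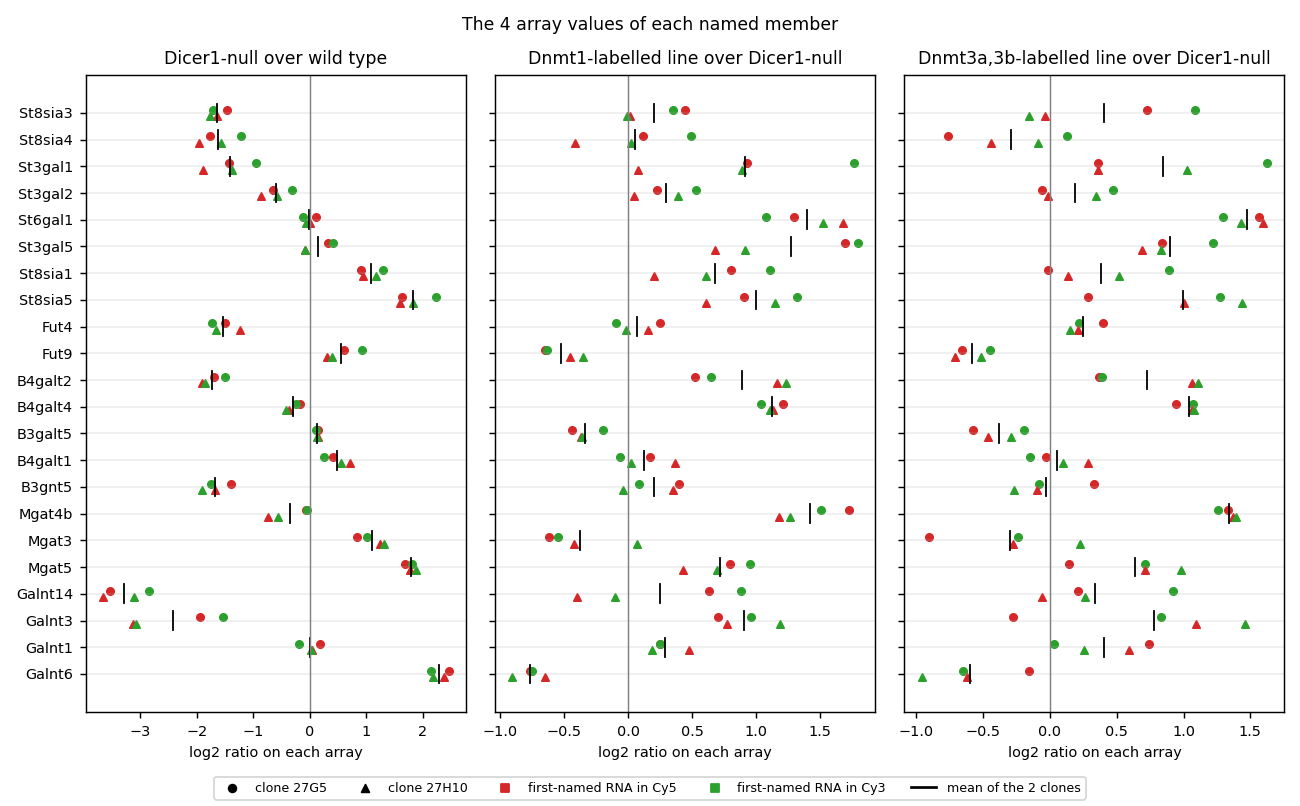
Log2 ratio on each of the 4 arrays for the 22 named members in the 3 comparisons, with red for the first-named RNA in Cy5, green for Cy3, circles for 27G5, triangles for 27H10 and a black line at the mean of both clones. Galnt14, Galnt3, St8sia3, St8sia4, Fut4, B4galt2 and B3gnt5 have all 4 Dicer1-null over wild-type values at or below -1.22, while St3gal1 spreads from 0.075 to 1.77 in the Dnmt1-labelled comparison.

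The second comparison set the Dnmt1-labelled line against its Dicer1-null parent. Here 19 of 64 members were higher, 7 lower and 38 did not pass, which is 29.7% higher and 10.9% lower, against 12% and 11.0% of all genes. At least 2-fold changes were found in 4 members upward and in 0 downward, beside 2.31% and 1.59% of all genes. The members' median log2 ratio was 0.21, and that of all genes 0.009. Sialyltransferases had 7 of 17 higher and 0 lower, with a median of 0.37. In the other families 12 of 47 were higher and 7 lower, with a median of 0.20.

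St6gal1 had the highest ratio of the sialyltransferases, with 1.30 and 1.08 in 27G5 and 1.68 and 1.52 in 27H10. The mean of 1.39 ± 0.29 (adjusted p = 0.00298) is a 2.63-fold difference, all 4 arrays lay above 1, and a dimmer probe gave 0.38. St3gal5 gave 1.70 and 1.79 in 27G5 and 0.68 and 0.91 in 27H10, with a mean of 1.27 ± 0.67 (adjusted p = 0.019). It was thus higher in both clones, and in 27G5 by 0.95 more than in 27H10. St8sia5 gave 0.91 and 1.32 in 27G5 and 0.61 and 1.15 in 27H10, a mean of 1.00 ± 0.17 (adjusted p = 0.00802). St3gal1 gave 0.93 and 1.77 in 27G5 and 0.075 and 0.89 in 27H10, with a mean of 0.92 ± 0.61 (adjusted p = 0.0379), and its array pairs differed between the dyes by nearly as much as its clones did. The St3gal1 call was lost under 6 of 18 alternative settings, and without the 27G5 ratio the value was 0.48. St8sia1 gave 0.80 and 1.11 in 27G5 and 0.20 and 0.61 in 27H10, a mean of 0.68 ± 0.39 (adjusted p = 0.0224), while its second probe gave 0.03. St3gal6, which caps lactosamine chains, at 0.89 ± 0.45 and St6galnac2 at 0.70 ± 0.06 were the other sialyltransferases that were higher.

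Some sialyltransferases did not pass. St8sia4 gave 0.11 and 0.49 in 27G5 and -0.42 and 0.02 in 27H10, with a mean of 0.05 ± 0.35, and St8sia3 a mean of 0.20 ± 0.28. St3gal2 had 4 arrays from 0.04 to 0.53 and a mean of 0.30 ± 0.11 (adjusted p = 0.0674). The lowest sialyltransferase was St6gal2 at -0.12 ± 0.20. The widest gap between clones among all members was in St3gal3, at -0.66 in 27G5 and 0.99 in 27H10, so its mean of 0.17 ± 1.17 says little about either.

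Mgat4b led the other families, with 1.73 and 1.50 in 27G5 and 1.18 and 1.27 in 27H10. Its mean was 1.42 ± 0.28 (adjusted p = 0.00602, 2.67-fold), all arrays lay above 1.1, and its second probe gave 1.13. Mgat4a, its close relative, was higher at 0.52 ± 0.03, as were Mgat1 at 0.57 ± 0.09 and Mgat2 at 0.35 ± 0.003. A second Mgat1 probe gave 0.06. Mgat5 gave 0.80 and 0.96 in 27G5 and 0.43 and 0.69 in 27H10, a mean of 0.72 ± 0.22 (adjusted p = 0.0177), but a second probe at chr1:127277768-127277827 (mm7), against chr1:127367074-127367133 for the first, gave -0.51. These Mgat5 probes agreed in sign in the first comparison and not here, so the direction depends on the probe. Mgat3 gave -0.61 and -0.55 in 27G5 and -0.43 and 0.07 in 27H10, and its mean of -0.38 ± 0.29 did not pass. B3gnt5 gave 0.40 and 0.09 in 27G5 and 0.35 and -0.04 in 27H10, a mean of 0.20 ± 0.06 that did not pass either. Mgat4c was at least 1.21-fold lower (adjusted p = 0.0342), since its RNA in the Dnmt1-labelled line was not well above background on any array.

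B4galt4 gave 1.21 and 1.04 in 27G5 and 1.13 and 1.11 in 27H10, with a mean of 1.12 ± 0.005 (adjusted p = 0.00247). No other member passing the test at 2-fold had clones so close. B4galt2 gave 0.52 and 0.65 in 27G5 and 1.16 and 1.23 in 27H10, a mean of 0.89 ± 0.43 (adjusted p = 0.0373), so both clones were above zero. B4galt1 lay from -0.07 to 0.37 with a mean of 0.12 ± 0.10 and did not pass. B3galt4 at -0.45 ± 0.18 and B4galt3 at -0.39 ± 0.24 were lower. B3galt5 was lower too, but its probe was not well above background in the Dnmt1-labelled RNA on any array, so the fold is at least 1.11 (mean log2 ratio -0.34 ± 0.03, adjusted p = 0.0233).

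Fut8 was the highest fucosyltransferase at 0.86 ± 0.41 (adjusted p = 0.0159), with 0.57 in 27G5 and 1.14 in 27H10. Fut9 was the lowest, with -0.65 and -0.64 in 27G5, -0.45 and -0.35 in 27H10 and a mean of -0.52 ± 0.17 (adjusted p = 0.0339). Its 4 other probes gave -0.45 to -0.20, and the call was lost under 6 of 18 alternative settings, the mean of all probes among them. Fut4 was not well above background in either RNA on any array, so no fold is given. Fut7, well above background on 0 of 4 arrays in Dicer1-null RNA and on 4 of 4 in the Dnmt1-labelled RNA, was at least 1.30-fold higher but did not pass (adjusted p = 0.054). Among the starters of O-glycans, Galnt6 gave -0.76 and -0.75 in 27G5 and -0.65 and -0.90 in 27H10, a mean of -0.77 ± 0.01 (adjusted p = 0.00871). Galnt1 was higher by little, at 0.29 ± 0.06 (adjusted p = 0.0371), and lost the call under 14 of 18 alternatives. Galnt3 had the highest mean of its family, with 0.70 and 0.96 in 27G5 and 0.77 and 1.19 in 27H10, and did not pass at 0.90 ± 0.10 (adjusted p = 0.129), although all 4 arrays were above zero. That test also took in the wider SDs of Galnt3, 0.96 in the first comparison and 0.71 in the third. Galnt14 gave 0.63 and 0.88 in 27G5 but -0.40 and -0.11 in 27H10, opposite in the clones.

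With the shared RNAs modelled, 2 members were called higher (St6gal1 and B4galt4) and 0 lower, against 1.45% and 0.943% of all genes. Without either wild-type ratio, or without the Dnmt1-labelled ratio of 27H10, 12 members were called higher and 2 lower, with 7.01% and 6.15% of all genes in the first case and 6.51% and 5.13% in the second. At the same time 6 of 10 trophoblast markers were higher in this line, with a summed signal of 108000 to 275000 against 32200 to 65100 in Dicer1-null RNA. Of 11 fibroblast genes 1 was higher and 3 lower, and of 12 primitive endoderm genes 2 and 3. Of 11 ES cell genes 3 were higher and 0 lower. The part of these cell types in the members' results was not tested.

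The third comparison, of the Dnmt3a,3b-labelled line with its Dicer1-null parent, used the same named Dicer1-null sources as the second. It had 19 of 64 members higher, 6 lower and 39 that did not pass, or 29.7% and 9.38%, against 10.4% and 10.8% of all genes. By at least 2-fold, 3 members were higher and 0 lower, beside 1.87% and 1.67% of all genes. The median log2 ratio was 0.19 over the members and 0.01 over all genes. Sialyltransferases had 6 of 17 higher and 0 lower with a median of 0.41, and the other families 13 of 47 higher and 6 lower with a median of 0.11.

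St6gal1 was again the highest sialyltransferase, with 1.57 and 1.29 in 27G5, 1.60 and 1.43 in 27H10 and a mean of 1.47 ± 0.06 (adjusted p = 0.00314). St8sia5 gave 0.29 and 1.27 in 27G5 and 1.00 and 1.44 in 27H10, a mean of 1.00 ± 0.31 (adjusted p = 0.00847). All 4 arrays of both genes were above zero. St3gal5 gave 0.84 and 1.22 in 27G5 and 0.69 and 0.83 in 27H10, a mean of 0.90 ± 0.19 at the edge of the threshold (adjusted p = 0.049). St3gal1 stood at the same edge with 0.36 and 1.63 in 27G5, 0.36 and 1.02 in 27H10 and a mean of 0.84 ± 0.21 (adjusted p = 0.049). St3gal5 lost its call under 10 of 18 alternative settings and St3gal1 under 7. St6galnac2 at 0.75 ± 0.13 and St3gal6 at 0.75 ± 0.26 were the others that were higher.

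St8sia1 gave -0.01 and 0.89 in 27G5 and 0.13 and 0.52 in 27H10, and its mean of 0.38 ± 0.08 did not pass (adjusted p = 0.101). St3gal2 gave 0.18 ± 0.03 and did not pass. St8sia4 had the lowest mean among the sialyltransferases at -0.29 ± 0.04, with arrays from -0.77 to 0.12, and did not pass (adjusted p = 0.188). St8sia3 gave 0.73 and 1.09 in 27G5 but -0.04 and -0.16 in 27H10, opposite in the clones.

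Among the branching enzymes, Mgat4b gave 1.33 and 1.26 in 27G5 and 1.37 and 1.39 in 27H10, with a mean of 1.34 ± 0.06 (adjusted p = 0.0072) and a second probe at 1.14. Mgat4a at 0.61 ± 0.09, Mgat1 at 0.53 ± 0.02 and Mgat2 at 0.40 ± 0.12 were higher as well, and the second Mgat1 probe gave 0.14. Mgat5 gave 0.14 and 0.71 in 27G5 and 0.71 and 0.98 in 27H10, a mean of 0.64 ± 0.30 (adjusted p = 0.0249), while its second bright probe gave -0.68. Averaging its probes gave -0.02, so no direction holds for Mgat5 here. Mgat3 had a mean of -0.30 ± 0.39 and B3gnt5 one of -0.03 ± 0.22, neither passing. Mgat4c was lower at -0.46 ± 0.17 (adjusted p = 0.0231), well above background on 1 of 4 arrays in the Dnmt3a,3b-labelled RNA.

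B4galt4 gave 0.94 and 1.07 in 27G5 and 1.06 and 1.08 in 27H10, a mean of 1.04 ± 0.05 (adjusted p = 0.00318), and was the only galactosyltransferase called higher in this comparison. B4galt2 gave 0.36 and 0.39 in 27G5 and 1.06 and 1.11 in 27H10, and its mean of 0.73 ± 0.50 did not pass (adjusted p = 0.0648). B4galt1 gave 0.05 ± 0.20. B4galt6, which makes lactosylceramide, was the lowest at -0.45 ± 0.20 (adjusted p = 0.0434), and B3galt4 was lower at -0.41 ± 0.001. B3galt5, again not well above background in the RNA of the labelled line, was at least 1.24-fold lower (mean log2 ratio -0.38 ± 0.004, adjusted p = 0.0175).

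Fut8 was higher at 0.95 ± 0.09 (adjusted p = 0.0125), Fut7 at 0.51 ± 0.10 and Fut11 at 0.44 ± 0.09. Fut9 gave -0.66 and -0.45 in 27G5 and -0.71 and -0.52 in 27H10, a mean of -0.59 ± 0.04 (adjusted p = 0.0262), with its 4 other probes at -0.60 to -0.09. Fut4 was not well above background in either RNA. Galnt6 gave -0.16 and -0.65 in 27G5 and -0.62 and -0.96 in 27H10, a mean of -0.60 ± 0.27 (adjusted p = 0.0168). Galnt1 gave 0.74 and 0.03 in 27G5 and 0.60 and 0.26 in 27H10, a mean of 0.41 ± 0.03 (adjusted p = 0.0162). In each clone the array with the labelled line in Cy5 was the higher for Galnt1. Galnt4 at 0.36 ± 0.04 and Galnt11 at 0.37 ± 0.05 were also higher. Galnt3 spread from -0.28 to 1.46 over its arrays, and its mean of 0.78 ± 0.71 did not pass (adjusted p = 0.182), nor did that of Galnt14 at 0.34 ± 0.33.

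With the shared RNAs modelled, St6gal1 and B4galt4 were again the 2 members called higher, with 0 lower, against 1.05% and 0.863% of all genes. Leaving out either clone's ratio of this comparison left 0 members called in it, as it did nearly all genes, of which at most 0.02% were called. Leaving out either wild-type ratio left 10 members higher and 2 lower, with 5.89% and 6.27% of all genes. Trophoblast markers were higher here too, in 7 of 10, with a summed signal of 105000 to 216000. Of 11 fibroblast genes 1 was higher and 2 lower, and of 12 primitive endoderm genes 2 and 2. Of 11 ES cell genes 1 was higher and 0 lower. The part of these cell types in the results was not tested.

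**Figure D3:**
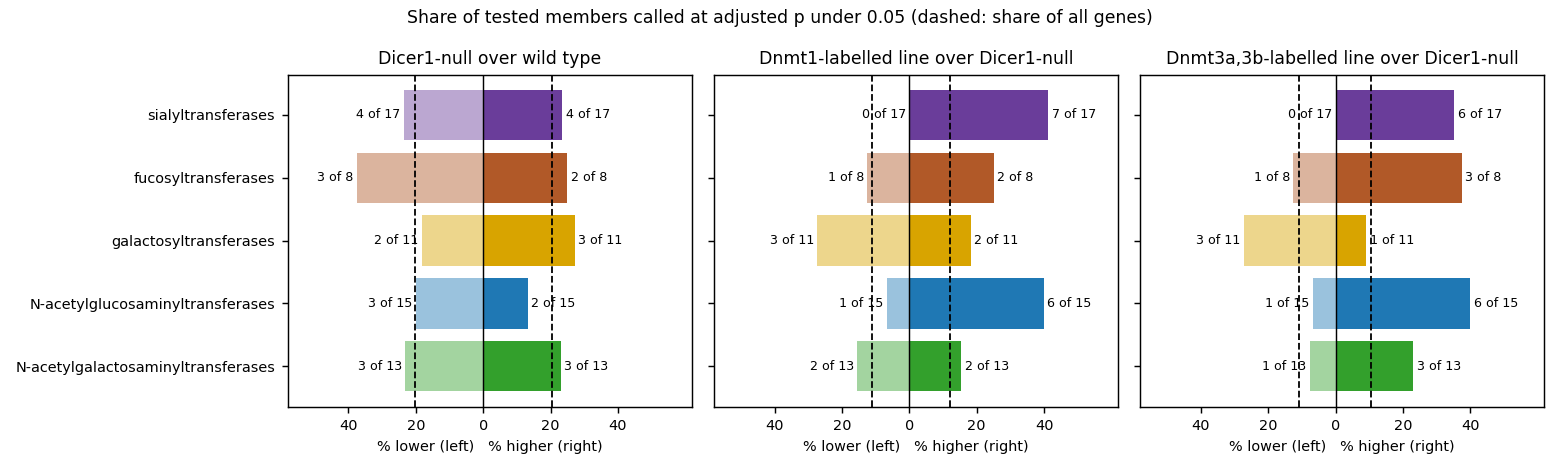
Share of tested members called higher (right, full colour) and lower (left, pale) in each enzyme family and comparison, with the counts at the bars and dashed lines at the share of all genes. Sialyltransferases have 0 of 17 lower in both Dnmt-labelled comparisons, beside 7 and 6 higher.

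The Dnmt-labelled lines were set against each other through their common Dicer1-null parents. The difference, Dnmt3a,3b-labelled minus Dnmt1-labelled, passed for 0 members and for 0 of 20048 genes (0%) in limma, and 189 genes had an unadjusted p under 0.05. Members lay between -0.37 and 0.28 with a median of 0.004. St3gal5 was the lowest at -0.37 ± 0.34 (SE), with -0.71 in 27G5 and -0.03 in 27H10, and Galnt9 the highest at 0.28 ± 0.12 (SE), with 0.40 and 0.16. A difference that did not pass does not show that the lines act alike.

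Each labelled line was also placed relative to wild type by adding its log2 ratio over Dicer1-null to that of Dicer1-null over wild type in the same clone. In the Dnmt1-labelled line 16 members were higher than wild type and 7 lower, or 25% and 10.9%, against 15.4% and 14.2% of all genes. In the Dnmt3a,3b-labelled line 16 were higher and 7 lower, against 14.9% and 14.4%. The same wild-type and Dicer1-null measurements enter both, and each sum joins ratios from different slides and scan dates. St8sia5 stood highest, at 2.81 ± 0.32 in the Dnmt1-labelled line (adjusted p = 0.00111) and 2.82 ± 0.15 in the Dnmt3a,3b-labelled line (adjusted p = 0.00116). Mgat5 was at 2.50 ± 0.17 and 2.42 ± 0.35 on its brightest probe, but at 0.51 ± 0.16 and 0.34 ± 0.31 on its second, so its size over wild type depends on the probe. St8sia1 at 1.76 ± 0.42 and 1.46 ± 0.11 and St6galnac2 at 1.40 ± 0.08 and 1.45 ± 0.15 were higher too, as was St6gal1 at 1.37 ± 0.27 and 1.45 ± 0.04. Their sizes depend on the probe as well. In the 3 comparisons in turn, the second probe of St8sia1 gave 0.72, 0.03 and 0.05. That of St6gal1 gave 0.005, 0.38 and 0.54. Other probes of St6galnac2 gave 0.41 to 0.60, 0.23 to 0.61 and 0.27 to 0.695.

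At the other end, Galnt14 was at -3.04 ± 0.85 in the Dnmt1-labelled and -2.95 ± 0.47 in the Dnmt3a,3b-labelled line. St8sia4 at -1.58 ± 0.55 and -1.92 ± 0.16 and B3gnt5 at -1.49 ± 0.22 and -1.71 ± 0.38 were lower than wild type in both lines, as was St8sia3 at -1.45 ± 0.36 and -1.24 ± 0.80. Fut4 was counted among the 7 lower members of each line, but no sum is given for it, since its probe was not well above background in either RNA of the labelled comparisons. Galnt6 was above wild type at 1.52 ± 0.03 and 1.69 ± 0.29. Fut9 was at 0.04 ± 0.13 (adjusted p = 0.898) and -0.03 ± 0.33 (adjusted p = 0.922), and St3gal1 at -0.50 ± 0.93 and -0.57 ± 0.53, neither passing. B4galt2 at -0.85 ± 0.23 and -1.01 ± 0.30 and Galnt3 at -1.52 ± 0.86 and -1.65 ± 0.26 did not pass, although every clone's value was below zero. With the shared RNAs modelled, 11 members were higher and 5 lower in the Dnmt1-labelled line and 11 higher and 4 lower in the other. The shares of all genes called in these sums under changed settings are not given here. These counts and those that follow are therefore no result about the members alone. Without the wild-type ratio of 27G5, 6 members were higher in each line, and without that of 27H10, 9 in each.

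**Figure D4:**
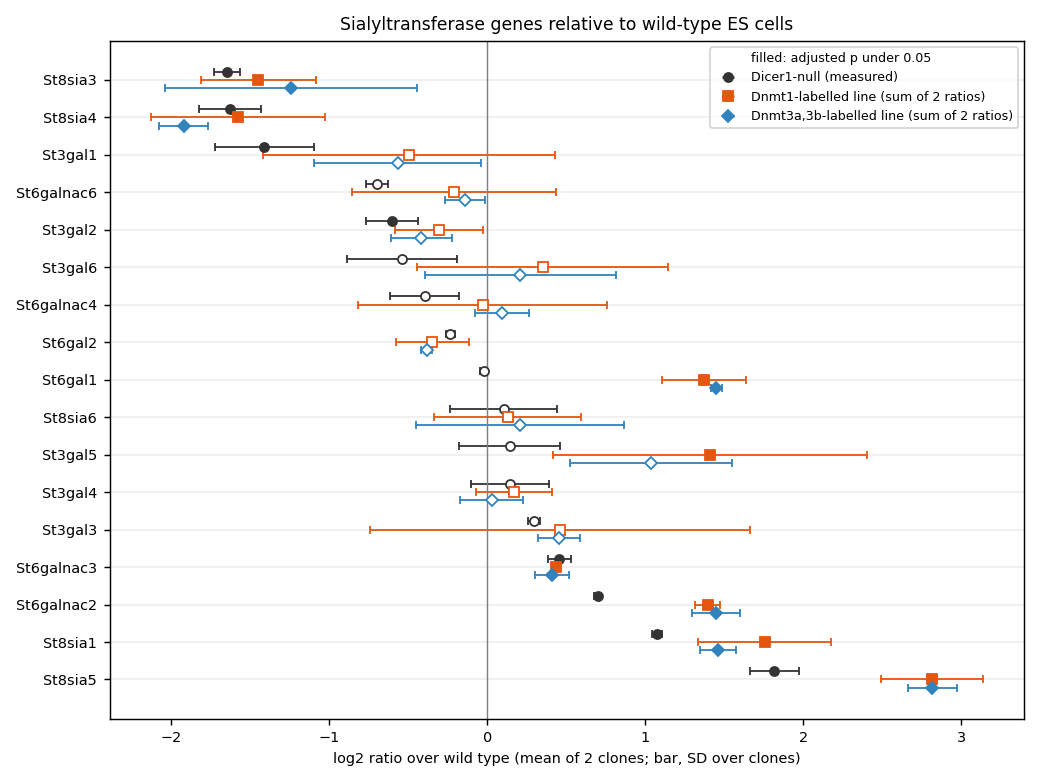
Log2 ratio over wild type of the 17 tested sialyltransferase genes in Dicer1-null cells (measured) and in both Dnmt-labelled lines (sum of 2 ratios), as means of 2 clones with bars of 1 SD over clones and filled symbols at an adjusted p under 0.05. St8sia3 and St8sia4 lie between -1.92 and -1.24 in all 3 lines, and St6gal1 is near 0 in Dicer1-null cells and at 1.37 and 1.45 in the labelled lines.

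Clones differed by little in most members and by a great deal in some. The median SD over clones was 0.12 in the first comparison, 0.17 in the second and 0.09 in the third, and the highest was 0.96, 1.17 and 0.71. All 4 arrays had the same sign in 43, 38 and 35 of the 64 members. Clones lay on opposite sides of zero on every array in 4, 9 and 6 members. These counts were not made over all genes, so whether the members differ from other genes in this is not known. Where a gene had a further probe above background, the signs of its probes differed in 20 of 105 results, and in 2 of the 42 that passed, both of them Mgat5.

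The wider pathway was described through a list of 59 genes that supply nucleotide sugars, start or branch other chains, or trim chains, of which 56 were measured. In Dicer1-null over wild type 15 were higher and 12 lower, in the Dnmt1-labelled comparison 12 higher and 2 lower, and in the Dnmt3a,3b-labelled comparison 10 higher and 2 lower. The shares of all genes were 20.4% and 20.1%, 12% and 11.0%, and 10.4% and 10.8%. Among the 11 genes for hexosamine and UDP-galactose supply, 5 were higher and 0 lower in Dicer1-null cells, led by Gfpt2, an enzyme at the entry of the hexosamine pathway, at 1.12 ± 0.20 (adjusted p = 0.0091). Sialic acid supply had 0 of 5 higher and 2 lower in Dicer1-null cells. Gcnt1, which makes core 2 O-glycans, was lower at -1.40 ± 0.19 (adjusted p = 0.0008), and its relative Gcnt3 was higher at 1.09 ± 0.15 (adjusted p = 0.000656).

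Of 10 hydrolases that trim chains, 3 were higher and 3 lower in Dicer1-null cells. The sialidase Neu1 was lower in Dicer1-null cells at -1.22 ± 0.12 (adjusted p = 0.000415). Hexa, a lysosomal hexosaminidase gene, was lower at -0.98 ± 0.001 (adjusted p = 0.0015). Hexa was higher than in the Dicer1-null parent in the Dnmt1-labelled line, at 1.20 ± 0.27 (adjusted p = 0.00338), and in the Dnmt3a,3b-labelled line, at 1.04 ± 0.06 (adjusted p = 0.00493).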

How the data were processed

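RNA of mouse ES cells was hybridised in dye-swapped pairs to 12 dual-colour Agilent arrays, 2 per clone and comparison. The deposited scanner files hold each spot's mean and background intensity, the scanner software's processed intensity and a log10 ratio, per the file headers, made with Feature Extraction 9.5.1.1 or, for the 4 wild-type arrays, 9.1.3.1. The authors' deposited value table holds log2 ratios whose processing is not stated. Its columns correlated at 0.968 to 1.00 with the scanner ratios once turned one way, and their medians ran from -0.1375 to 0.1691.

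Here mean intensities were background-corrected (normexp, offset 50, which draws ratios of dim probes toward zero) and normalised by loess within each array. Control and outlier spots were left out, spots of a probe averaged, and ratios turned one way by the dyes in the labels. A probe was tested if present on all 12 arrays and well above background on both arrays of a pair in 1 RNA. Each gene's brightest probe was kept, limma (3.58.1, R 4.3.3) was fitted to 6 ratios with 3 residual degrees of freedom, and p-values were adjusted by Benjamini-Hochberg over 20048 genes, with calls under 0.05. The few arrays limit the precision. Errors are SD over 2 clones. The fit takes 1 spread per gene over all 3 comparisons, so a p-value does not rest only on the SD printed beside it. Where a probe was not well above background on any array of 1 RNA, its fold is a lower bound against the array's lowest signal well above background.

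Same-numbered ratios come from the same clone, so clone pairs them. Deviations of clones correlated at -0.065, -0.128 and 0.365 between comparisons. No per-sample column was left unused (0). The members, gene lists and tests were chosen with earlier results of these data known. Values on every array are given for members called at 2-fold or more in a comparison and for 13 genes chosen by role, and the highest and lowest of each family are named. Further members that passed are named after their values were seen. The 13 alternative settings chosen were all run, and the fit was tested on simulated data.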

Additional observations from a re-analysis of the deposited data

Results flagged for a closer look

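Among 74 results checked, 1 array lay far from the others of its group by Dixon's criterion, which chance meets in about 1 in 20 groups. It was the 27G5 array with the Dnmt3a,3b-labelled RNA in Cy5, where B4galt4 gave 0.940 while its other arrays gave 1.064 to 1.078, all above zero.

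In 5 of the results checked every array of one clone lay on one side of zero and every array of the other clone on the opposite side. None of these differences was tested. Galnt14 in the Dnmt1-labelled comparison differed by 1.006 (27G5 minus 27H10), with 0.754 in 27G5 and -0.252 in 27H10. St8sia3 in the Dnmt3a,3b-labelled comparison differed by 1.004, with 0.908 and -0.096. St3gal5 in Dicer1-null over wild type differed by 0.455, with 0.367 and -0.088. St6gal2 in the Dnmt1-labelled comparison differed by 0.287, with 0.029 and -0.258. B4galt1 in the Dnmt3a,3b-labelled comparison differed by -0.279, with -0.091 and 0.188. None of the 5 means passed the test across all genes.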

How the results depend on the processing

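Counts of called members are given here under the settings that moved them by more than 1.5 times, apart from fits that left out a ratio. The share of all genes called moved as well under some of them. In the first comparison it went from 20.4% higher and 20.1% lower to 4.79% and 4.91% with the shared RNAs modelled. It moved too when a clone's ratio was left out, so the counts below are no result about the members alone. Shares for the sums over wild type under these settings are not given here. With the RNAs shared between ratios modelled, the first comparison had 4 higher and 6 lower (sialyltransferases 2 and 1), each Dnmt-labelled comparison 2 higher and 0 lower (sialyltransferases 1 higher), and the Dnmt3a,3b-labelled line 4 below wild type. Requiring both channels of all arrays above background left 4 lower in the Dnmt1-labelled comparison, with 11.8% of all genes, and 4 below wild type in that line. Fitting the 12 arrays with a dye coefficient gave 13 members below wild type in the Dnmt3a,3b-labelled line and 8 sialyltransferases lower in the first comparison, and processed signals with loess and the authors' deposited table each gave 7 there. Of all genes, 23.2% were lower in the first comparison with the dye coefficient, and 20% with processed signals and with the deposited table. Without background correction, or with the filter of 2 or more arrays, 3 sialyltransferases were higher in the Dnmt3a,3b-labelled comparison. The shares of all genes higher there were 10.2% and 9.96%.

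Leaving out each clone's ratio in turn gave 6 to 16 higher and 6 to 20 lower in the first comparison, 12 to 16 and 1 to 5 in the Dnmt1-labelled, and 0 to 24 and 0 to 7 in the Dnmt3a,3b-labelled comparison. It gave 6 to 15 above and 5 to 10 below wild type in the Dnmt1-labelled line, and 6 to 20 above and 4 to 11 below in the other. Sialyltransferases ran from 3 to 5 higher and 1 to 8 lower in the first comparison, 5 to 8 and 0 to 1 in the second, and 0 to 9 and 0 to 0 in the third. The value of 0 in the third came without either of its own ratios, and the 8 lower sialyltransferases without either Dnmt1-labelled ratio. The difference between the labelled lines stayed at 0 calls in each of these.

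With clone as a replicate block, 14 members were higher and 17 lower in the first comparison, 17 and 5 in the second and 19 and 5 in the third, and 6 sialyltransferases were lower in the first. The shares of all genes in that fit were 20.4% and 19.7%, 11.8% and 10.2%, and 10.1% and 10.1%. Averaging all probes turned Mgat5 in the Dnmt3a,3b-labelled comparison to -0.021. Of 1179 values of single genes under these settings, 1032 kept direction and side of the threshold, 118 lost the call, 13 gained it and 1, that of Mgat5, was called and changed sign. Another 15 changed sign without a call on either side, in Galnt1, St8sia4, B3gnt5, St3gal5, Galnt14, St8sia3 and B4galt1. The causes were not tested. Signals near background limit Fut4, Fut7, B3galt5 and Mgat4c.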
